A study of Mus musculus with 12 samples.

Results

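A set of 10 genes that mark the cells of blood vessel walls was followed in mice lacking exon 5 of Gdap1 and in wild type mice. Pecam1, Cdh5, Cldn5, Kdr, Flt1, Tek and Tie1 mark endothelial cells, and Rgs5, Pdgfrb and Acta2 mark mural cells. Every probe set whose platform annotation gives exactly 1 symbol, that of a member, was taken, which gave 20 probe sets of 45037 and 10 genes of 18193. Rgs5 and Flt1 had 4 probe sets each, Acta2 had 3, Cdh5 and Pdgfrb had 2 each and the other 5 genes had 1 each.

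Messenger RNA was measured on 12 Affymetrix arrays, 3 for each of 4 groups. The groups were motoneurons of Gdap1-/- mice, motoneurons of wild type mice, sciatic nerve of Gdap1-/- mice and sciatic nerve of wild type mice. All mice were 2 months old and untreated, motoneurons were cut out by laser, and whole nerve was lysed. Gdap1, whose product sits in the outer membrane of mitochondria, lacks exon 5 in the knockout mice (KO), and the design text places its probe sets in exons 4 and 6, so they check nothing about the deletion. The labels call each array a biological replicate and name no strain or litter. The submitters chose the samples by amount and quality of RNA out of 5 mice, and 20 ng of RNA was amplified for each array. Whether the 5 mice were those of each group or of the whole study is not stated. Nerve and motoneurons were extracted with different kits, so that tissue and kit cannot be told apart.

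Endothelial cells line every vessel, and mural cells (pericytes on capillaries and smooth muscle cells on arteries and veins) wrap them. Vascular endothelial growth factor (VEGF) acts on the endothelium through the receptors Kdr and Flt1, and the angiopoietins act through Tek, with which Tie1 cooperates. Platelet-derived growth factor B from the endothelium holds pericytes in place through Pdgfrb. In brain, spinal cord and nerve, tight junctions of the endothelium, built in large part by Cldn5, form the barrier between blood and tissue.

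The members lie apart in the genome. On assembly GRCm38.p6, the VEGF receptor genes Kdr and Flt1 are both on chromosome 5, at positions 75932827 to 75979072 for Kdr and 147561604 to 147726438 for Flt1. The receptor genes Tek and Tie1 are both on chromosome 4. Rgs5 is the only member on chromosome 1, 152.5 Mb from Gdap1. RefSeq promoter windows of that build, from 250 bases before an annotated start site to 50 after it, could be matched for 7 of the 10 members. The windows of Flt1 and Kdr lie wholly within the gene ranges given above, so their start sites are not the outermost ends of those genes. All 7 windows were searched on both strands for AGGAAG, a form of the sequence that ETS factors of the endothelium bind. They were also searched for the CArG box, the element bound by serum response factor in smooth muscle genes. Only its strict form was counted, CCWWWWWWGG with W for A or T. The first was found in 2 of the 7 members and in 35.351% of 32851 promoters of the same length. The second, in its strict form, was found in 0 of the 7 and in 1.629% of all. The Acta2 window holds ccctatatgg and ccttgtttgg, which each depart from that form at a single base and were not counted. Both receptor genes with an AGGAAG match read lower in motoneurons than in nerve, as described next, and so did the members without one. The promoters of these receptor genes are shown, with the matched letters in capitals. They lie at chr5:147725962-147726261 for Flt1 and at chr4:118489800-118490099 for Tie1, both on the minus strand and written 5′ to 3′.
Flt1: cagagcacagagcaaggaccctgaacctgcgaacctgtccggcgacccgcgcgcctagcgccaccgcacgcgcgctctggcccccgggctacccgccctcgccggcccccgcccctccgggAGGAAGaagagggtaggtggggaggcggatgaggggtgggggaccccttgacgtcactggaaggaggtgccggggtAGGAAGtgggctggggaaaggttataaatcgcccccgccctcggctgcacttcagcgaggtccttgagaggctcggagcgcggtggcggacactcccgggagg
Tie1: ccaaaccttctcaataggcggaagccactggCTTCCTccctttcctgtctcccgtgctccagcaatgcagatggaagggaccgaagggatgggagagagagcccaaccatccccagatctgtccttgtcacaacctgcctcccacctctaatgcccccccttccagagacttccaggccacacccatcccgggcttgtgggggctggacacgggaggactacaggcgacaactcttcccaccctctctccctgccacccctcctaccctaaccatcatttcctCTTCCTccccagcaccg
Counted from the start site of its window, the matches of Flt1 begin at -129 and -53, on the strand shown. Those of Tie1 lie on the other strand, so that the capitals show the reverse complement, and begin at -219 and 34.

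Values are on the log2 scale as deposited, and a level of one probe set is not set against that of another gene's. Where a gene has several probe sets, the one with the highest mean over the 12 arrays is meant unless another is given. Array medians lay between 6.53 and 6.59 in motoneurons and between 8.29 and 8.40 in nerve, so the tissues were read as normalized separately. Over all probe sets, motoneuron wild type (WT) replicate 3 correlated more closely with the KO arrays (mean r = 0.989) than with its own group (mean r = 0.987), and the same held for nerve WT replicates 1 and 2 and nerve KO replicate 3. Xist, a transcript of the inactive X chromosome, was low in 1 of 6 motoneuron arrays (KO replicate 2). It was high in 2 of 6 nerve arrays (KO replicate 3 and WT replicate 2). Eif2s3y, a gene of the Y chromosome, read 10.95 in that motoneuron array, against 3.19 to 3.80 in the others. In nerve it read 5.39 and 4.71 in the arrays with high Xist, against 12.58 to 12.77 in the others. By these transcripts sex was uneven between the tissues, and between KO and WT motoneurons. Some results are also given without these arrays. The 95th percentile of 44 olfactory receptor probe sets, genes that neither tissue is known for, served as a yardstick of low values. In motoneurons 7 of the 20 member probe sets averaged at or under it in both genotypes (5.20 in KO and 5.29 in WT), among them that of Pecam1 and both of Cdh5. In nerve it was 6.60 in KO and 6.65 in WT, and 1 member probe set, of Cdh5, averaged under it.

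The vessel genes were much lower in captured motoneurons than in nerve, in both genotypes. All 20 probe sets passed the test in the direction of lower motoneuron values (limma, Benjamini-Hochberg adjusted over all 45037 probe sets at 0.05), and all 6 nerve arrays lay above all 6 motoneuron arrays for each of them. The call was also common elsewhere, at 67.5% of all probe sets in KO and 67.9% in WT, and motoneuron arrays lay below nerve arrays without overlap for 68.7% of all in KO and 69.2% in WT, on scales that differ between the tissues. The median difference of the 10 genes was -5.27 in KO and -4.94 in WT, against -1.04 and -1.09 over all probe sets. Among other lists, fibroblast and perineurial markers had medians of -7.89 in KO and -7.80 in WT. Those of microglia and macrophages were -5.165 and -5.173, and those of skeletal muscle -5.32 and -6.21. Blood cell markers had -4.08 and -4.27, and Schwann cell markers -4.12 and -3.77. Astrocyte markers had 0.01 and 0.17, and oligodendrocyte markers 3.79 and 3.74. Lower motoneuron values were thus not particular to vessel genes. Fewer vessel cells in the captured material and less of these RNAs per cell cannot be told apart in such samples. Of 13 motoneuron markers, 12 passed as higher in the captured motoneurons in both genotypes, and all 13 did under both rescalings described below.

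Among the junction genes, Pecam1, an adhesion molecule of endothelial contacts, read 4.63, 4.40 and 4.33 in KO motoneurons, against 10.22, 10.37 and 9.79 in KO nerve. In WT it read 4.52, 5.25 and 4.79 in motoneurons, against 10.22, 10.08 and 9.89 in nerve. The motoneuron arrays were all near the yardstick of low values, and the difference of -5.67 in KO (SE 0.22, adjusted p = 4.99e-08 by limma) and -5.21 in WT (SE 0.23, adjusted p = 4.36e-07) was far beyond the spread between replicates. Cdh5, the cadherin of endothelial adherens junctions, differed by -5.14 in KO and -4.70 in WT with its probe set of higher level. Its other probe set (1422047_at), near the low yardstick even in nerve, differed by -2.06 in KO and -2.27 in WT, the smallest difference of the 20 in each genotype. Cldn5 read 8.80, 8.88 and 9.06 in KO motoneurons, against 13.09, 13.14 and 13.02 in KO nerve. Its WT values were 9.40, 9.08 and 9.15 in motoneurons, against 13.08, 13.08 and 12.98 in nerve. Cldn5 thus stood clear of the low yardstick in motoneuron arrays, with differences of -4.17 in KO (SE 0.11) and -3.84 in WT (SE 0.13).

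Among the VEGF receptors, Kdr, the main signalling receptor, read 6.36, 5.87 and 5.58 in KO motoneurons, against 11.40, 11.63 and 11.41 in KO nerve. In WT it read 6.47, 6.11 and 6.32 in motoneurons, against 11.50, 11.50 and 11.42 in nerve. The motoneuron and nerve arrays were far apart in both genotypes. Flt1, which binds VEGF tightly and signals weakly, differed by -4.16 in KO and -3.86 in WT with its probe set of highest level. Its 4 probe sets all passed in both genotypes. For the angiopoietin side, Tek read 7.00, 6.85 and 7.25 in KO motoneurons, against 12.51, 12.77 and 12.13 in KO nerve. In WT, Tek read 7.08, 7.22 and 7.07 in motoneurons, against 12.66, 12.83 and 12.32 in nerve. Tek differed by -5.44 in KO and -5.48 in WT, and its partner Tie1 by -4.52 in KO and -4.42 in WT.

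Among the mural genes, Acta2, the actin of smooth muscle, had the largest difference of the 20 probe sets with its probe set of highest level (1416454_s_at). It read 6.03, 5.81 and 6.41 in KO motoneurons, against 14.30, 14.09 and 13.87 in KO nerve. In WT it read 6.42, 6.36 and 8.44 in motoneurons, against 14.12, 14.43 and 14.14 in nerve. The third WT motoneuron array was far above its fellows, and the difference was -8.00 in KO (SE 0.19, adjusted p = 5.55e-09 by limma) and -7.16 in WT (SE 0.51, adjusted p = 5.09e-06). The other Acta2 probe sets, both under the low yardstick in motoneurons, differed by less. Their differences were -3.90 in KO and -3.79 in WT (1444105_at), and -3.06 in KO and -3.45 in WT (1456658_at). Pdgfrb, the pericyte receptor for platelet-derived growth factor B, differed by -5.40 in KO and -5.25 in WT. Rgs5, a regulator of G protein signalling that is abundant in pericytes, read 9.44, 8.48 and 9.56 in KO motoneurons, against 13.16, 13.35 and 13.43 in KO nerve. Its WT values were 10.18, 9.47 and 10.20 in motoneurons, against 13.46, 13.43 and 13.43 in nerve, a difference of -3.49 (SE 0.20), against -4.15 in KO (SE 0.26).

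**Figure D1:**
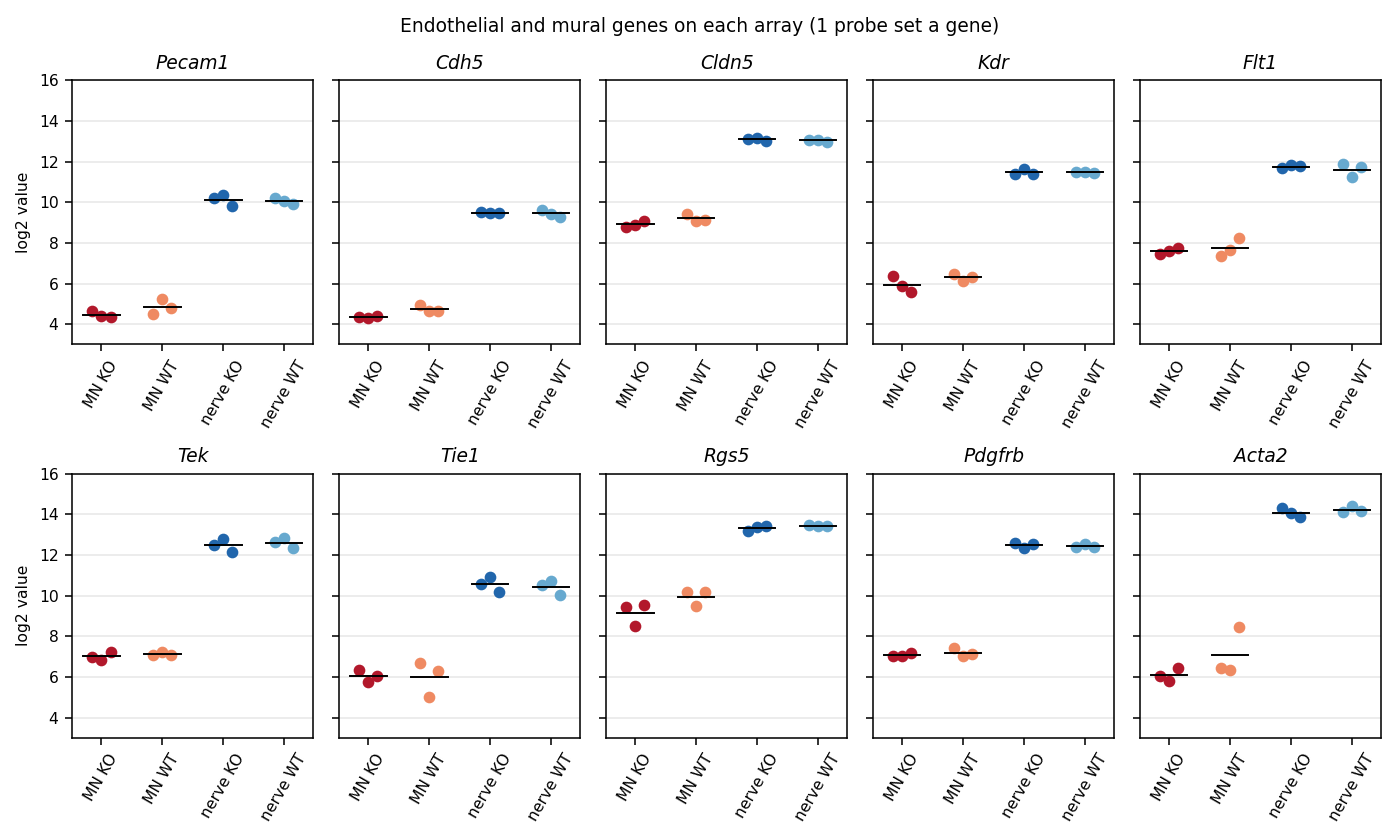
Log2 value of the highest-level probe set of each of the 10 genes on every array (points), by group along the x axis, with bars at the group mean (n = 3 arrays each). Every nerve array lies above every motoneuron array in each panel, and in motoneurons the third WT array of Acta2, at 8.44, stands above the others.

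Since the tissues have different medians, the differences were also taken after 2 rescalings. The first was quantile normalization of the motoneuron and nerve arrays together, done within each genotype. The second centred each array on its median. The median over all probe sets moved to 0.16 in KO and 0.15 in WT with quantile normalization, and to 0.74 and 0.67 with centring. The median of the 10 genes stayed negative, at -3.91 in KO and -3.40 in WT with quantile normalization and at -3.49 in KO and -3.18 in WT with centring. With these scalings 33.6% (KO) and 32.9% (WT) of all probe sets passed as lower by the first and 24.8% and 24.7% by the second. All 20 member probe sets passed as lower in WT under both, and 19 of 20 did in KO. The exception was Cdh5 (1422047_at), whose difference in KO was -0.43 with quantile normalization (adjusted p = 0.199 by limma) and -0.29 with centring (adjusted p = 0.284).

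**Figure D2:**
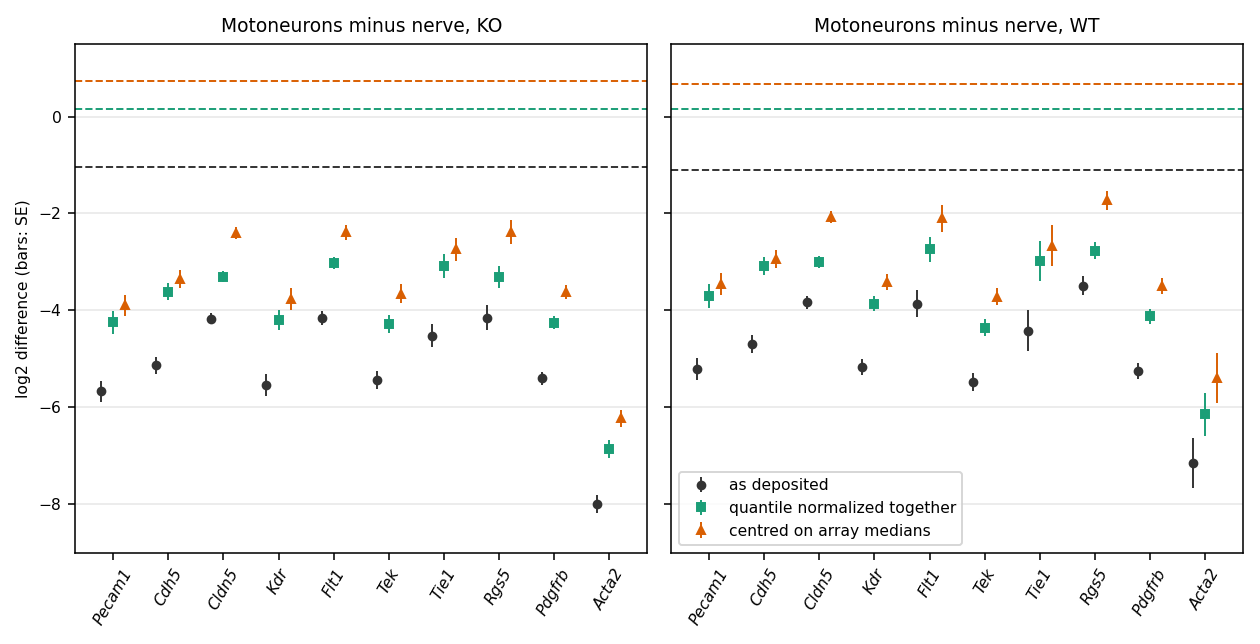
Log2 difference, motoneurons minus nerve, of each gene's highest-level probe set ± SE under 3 scalings, with KO on the left and WT on the right; dashed lines mark the median over all probe sets. All 10 genes lie below the dashed line of their own scaling in both genotypes, with Acta2 lowest.

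Other genes of the vessel wall were taken from fixed lists, each by its probe set of highest mean. Of 18 other mural genes, all 18 passed as lower in motoneurons in both genotypes, with a median of -4.83 in KO and -4.79 in WT. After centring 16 passed as lower in KO and 17 in WT, and Foxf2, the transcription factor gene with the smallest deposited difference of the list (-0.70 in KO and -1.17 in WT), passed as higher in each. Of 35 other endothelial genes, 33 passed as lower in each genotype, and the adhesion molecule Mcam passed as higher, by 0.72 in KO and 0.93 in WT. After centring, 22 of the 35 passed as lower in KO and 23 in WT, and 2 passed as higher in KO and 3 in WT. Of 19 ligands and co-receptors of these pathways, 16 passed as lower in KO and 17 in WT. The 2 that passed as higher in both genotypes were the VEGF family ligand Pgf, at 1.68 in KO and 1.77 in WT, and the platelet-derived growth factor Pdgfd, at 1.14 in KO and 1.30 in WT. After centring, 10 of the 19 passed as lower and 4 as higher in KO, and 9 as lower and 6 as higher in WT. Foxf2, Mcam, Pgf and Pdgfd were picked out after their values were seen.

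In motoneurons, no member passed the test between KO and WT, nor did any of the 45037 probe sets (0%). At an unadjusted p under 0.05 there were 7665 probe sets over the whole array, 17% of all. Of the 10 genes, 9 had a negative difference, KO minus WT, and of the 20 probe sets 15 did, against 44.3% of all probe sets. The median over the 10 genes was -0.33, against 0.04 over all probe sets. An unadjusted p under 0.05 with a negative difference was seen for 4 of the 20, against 8.24% of all. These were Rgs5 (1417466_at and 1420940_x_at), Cdh5 (1433956_at) and Flt1 (1440926_at), so Rgs5 entered with more than 1 probe set. Of these, 1420940_x_at and 1433956_at averaged under the low yardstick in both genotypes. KO arrays lay all below WT arrays for 3 of the 20, against 9.77%. The mean of the 10 genes was 6.74, 6.49 and 6.76 on the KO arrays, against 7.05, 6.78 and 7.23 on the WT arrays. KO and WT arrays did not overlap in this mean, by a narrow gap of 6.76 against 6.78, though they overlapped for 17 of the 20 probe sets. The mean of the 35 other endothelial genes did not overlap either. It was 7.27 to 7.53 in KO and 7.58 to 7.64 in WT, although their median difference was -0.03. The means of the other mural genes and of the ligands and co-receptors did overlap.

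Among the mural genes, probe sets of one gene gave unlike values. Rgs5 (1417466_at) differed by -0.79 (SE 0.33), with the KO arrays (9.44, 8.48 and 9.56) overlapping the WT arrays (10.18, 9.47 and 10.20). Another Rgs5 probe set (1420940_x_at), whose suffix marks probes that can bind other transcripts, read 4.05, 3.87 and 3.92 in KO, against 5.37, 5.63 and 4.80 in WT. This pair of groups did not overlap, and the difference of -1.32 (SE 0.24) had an unadjusted p of 0.000589 and an adjusted p of 0.108 by limma, the smallest of the 20. Both genotypes averaged under the low yardstick for that probe set, and the other Rgs5 probe sets differed by -0.55 (1420941_at) and -0.07 (1420942_s_at). Acta2 (1416454_s_at) differed by -0.99 (SE 0.54), which rested on the third WT array, at 8.44; without it the difference was -0.31. The other Acta2 probe sets, both under the low yardstick, differed by 0.16 (1444105_at) and 0.18 (1456658_at). Pdgfrb (1417148_at) differed by -0.11. With its other probe set (1436970_a_at) it read 5.73, 4.28 and 6.63 in KO, against 7.74, 6.35 and 5.74 in WT, a difference of -1.06 with overlapping groups.

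Among the endothelial junction genes, Cdh5 read 4.36, 4.29 and 4.40 in KO motoneurons, against 4.96, 4.63 and 4.66 in WT motoneurons. Cldn5 read 8.80, 8.88 and 9.06 in KO, against 9.40, 9.08 and 9.15 in WT. All KO arrays lay below all WT arrays for both genes, with differences of -0.40 (SE 0.17, adjusted p = 0.291 by limma) for Cdh5 and -0.30 for Cldn5, though the other Cdh5 probe set differed by 0.08. Pecam1 differed by -0.40, with KO replicate 1 above WT replicate 1. None of these passed. Both Cdh5 probe sets and that of Pecam1 averaged under the low yardstick in both genotypes. KO arrays all below WT arrays were seen for 9.77% of all probe sets.

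The growth factor receptors gave smaller or uneven values. Kdr differed by -0.37 with overlapping groups. Flt1 differed by -0.16, -0.34, -1.09 and 0.08 over its 4 probe sets (1451756_at, 1419300_at, 1440926_at and 1454037_a_at). The third of these read 6.20, 5.11 and 4.49 in KO, against 6.02, 6.72 and 6.34 in WT, so that KO replicate 1 lay within the WT range. Tek differed by -0.09 and Tie1, whose WT replicates spread from 5.03 to 6.69, by 0.04. Probe sets disagreed in sign for 3 of the 5 genes with more than 1, namely Cdh5, Flt1 and Acta2.

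**Figure D3:**
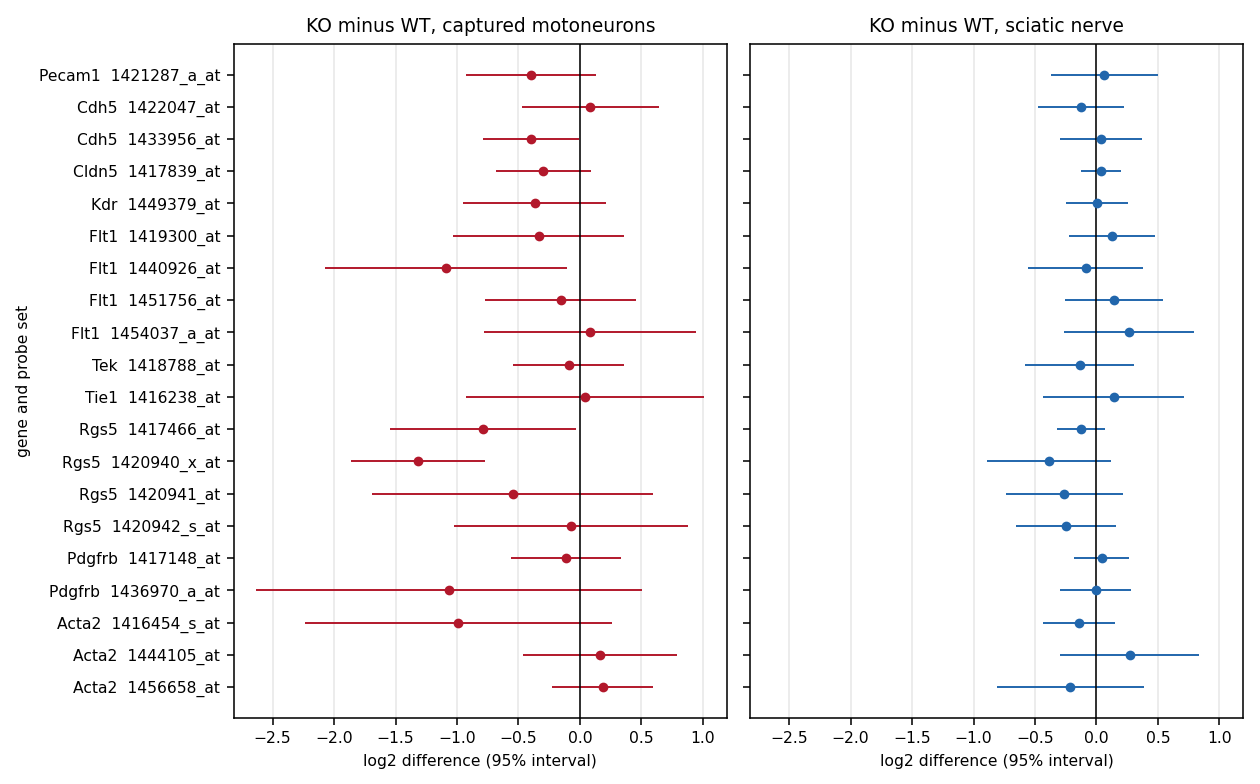
Log2 difference, KO minus WT, with its 95% interval for the 20 probe sets in motoneurons (left) and nerve (right), from limma fits with 3 arrays per group. Motoneuron differences run from -1.32 to 0.18 and nerve differences from -0.38 to 0.27, and no probe set passed after adjustment.

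Single arrays moved these values. KO replicate 2, the motoneuron array with low Xist, held the lowest of the 6 values for 9 of the 20 probe sets. Without KO replicate 2 the median of the 10 genes was -0.31, Rgs5 (1417466_at) was at -0.45 and Pdgfrb (1436970_a_at) at -0.43. Without WT replicate 3, 4646 probe sets over the whole array passed (10.3%, with 5.64% lower), and 1 of the 20 did: Rgs5 (1420940_x_at), at -1.55 (adjusted p = 0.00747 by limma). The median of the 10 genes was then -0.32, with 8 of 10 negative, and Flt1 (1419300_at) was at -0.046. The spiked-in bioB control, which is not mouse RNA, averaged 10.45 to 10.60 in KO motoneurons, against 10.94 to 11.16 in WT motoneurons. It also differed in nerve, at 10.46 to 10.55 in KO, against 11.33 to 11.59 in WT. The 18S ribosomal RNA control averaged 10.98, 10.90 and 10.72 in KO motoneurons, against 10.37, 10.44 and 10.86 in WT motoneurons. WT replicate 3 thus lay within the KO range for 18S, and the other WT arrays below it. The bioB values of KO and WT did not overlap in either tissue, so what moved them cannot be told apart from genotype. The part of these arrays' differences in the members' values was not tested.

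Other vessel genes in motoneurons gave no call either. Of 35 other endothelial genes 19 had a negative difference, with a median of -0.03, and 0 passed. They included Vcam1, the adhesion molecule for white blood cells, at -1.52 (adjusted p = 0.0987 by limma), Mcam at -0.34 (adjusted p = 0.120), the ETS factor Fli1 at -1.41 (adjusted p = 0.120) and the membrane protein gene Itm2a at -0.76 (adjusted p = 0.197). Of 18 other mural genes 12 were negative, with a median of -0.23, and the pericyte proteoglycan Cspg4 was at -0.64, the receptor Notch3 at -0.39, and the smooth muscle genes Tagln at -0.44 and Cnn1 at 0.44. Of 19 ligands and co-receptors 11 were negative, with a median of -0.05. Vegfa, the ligand of both VEGF receptors, was at -0.58, Vegfb at 0.43, the receptor Tgfbr2 at -0.47 and its ligand Tgfb1 at 0.94. Without WT replicate 3, 4 of the 35 other endothelial genes passed as lower.

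Markers of the glia that lie next to motoneurons also had mostly negative differences between KO and WT. All 11 oligodendrocyte markers and 8 of 12 astrocyte markers had a negative difference, with medians of -0.35 and -0.31, and 0 passed; without WT replicate 3, 2 oligodendrocyte and 3 astrocyte markers passed as lower. The astrocyte list averaged 10.30 to 10.60 on KO motoneuron arrays, against 10.61 to 10.89 on WT arrays. The oligodendrocyte list averaged 10.97 to 11.41 on KO arrays, against 11.30 to 11.83 on WT arrays, which overlap. Of the motoneuron markers 10 of 13 were negative, with a median of -0.09, while microglial, blood and Schwann cell lists had medians of -0.0098, -0.0019 and 0.09. Fibroblast and perineurial markers had a median of -0.12 (8 of 12 negative) and skeletal muscle markers one of 0.08 (4 of 12 negative). Their part in the members' differences was not tested.

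**Figure D4:**
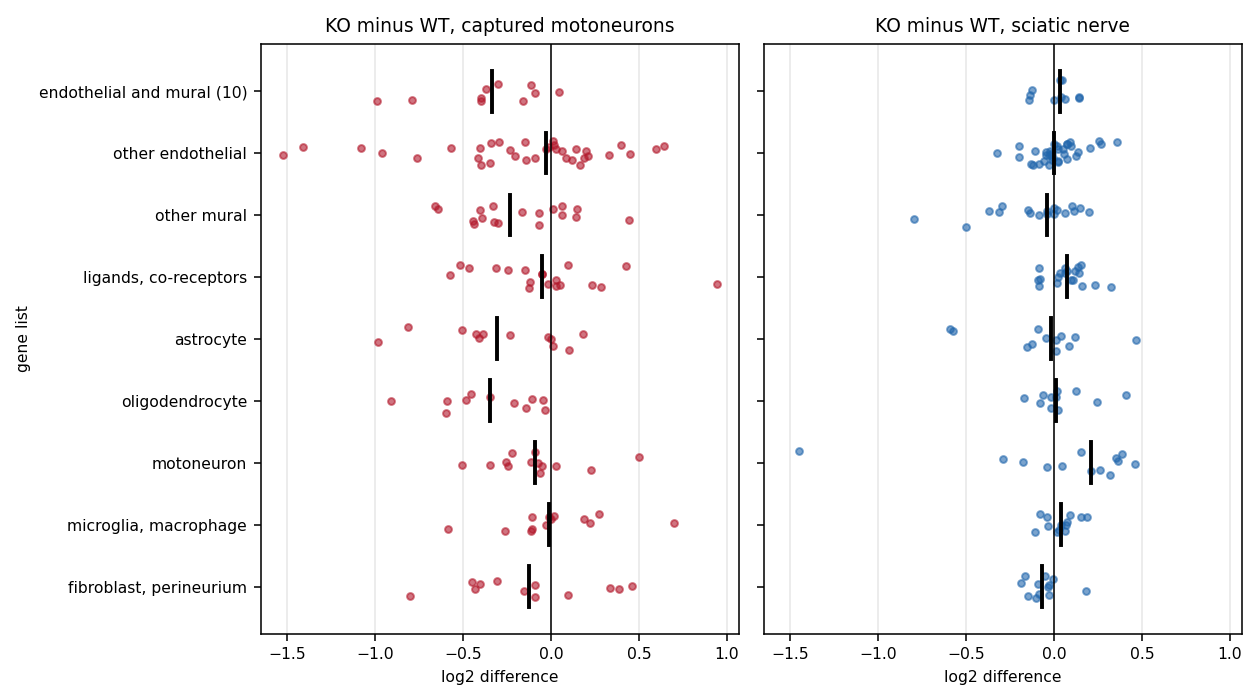
Log2 difference, KO minus WT, of each gene (points) in 9 lists of cell type markers and vessel genes, with black bars at the list medians. In motoneurons the median of the 10 members is -0.33, beside -0.35 for oligodendrocyte and -0.31 for astrocyte markers.

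In nerve, where the members were well measured, no difference between KO and WT was detectable with these arrays. No member passed, and no probe set of the array did (0%, with 1040 at an unadjusted p under 0.05, 2.31% of all). The 20 differences ran from -0.38 to 0.27, each with an adjusted p of 1 by limma, and none of the 20 had an unadjusted p under 0.05. Their 95% intervals all lay between -0.89 and 0.83. Of the 10 genes 7 had a positive difference, against 52.9% of all probe sets, and 4 had one after centring.

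Cldn5 read 13.09, 13.14 and 13.02 in KO nerve, against 13.08, 13.08 and 12.98 in WT nerve, a difference of 0.04. Kdr differed by 0.0024 and Pecam1 by 0.06. Tek differed by -0.14 and Tie1 by 0.14, with KO replicate 3 and WT replicate 3 the lowest of their groups for both. The 4 Rgs5 probe sets all had negative differences, at -0.13, -0.26, -0.25 and -0.38. The last of these (1420940_x_at) is the one with the largest difference in motoneurons. In nerve it read 8.13, 8.24 and 8.28 in KO, against 9.05, 8.37 and 8.39 in WT, which do not overlap, as was the case for 1 of the 20 probe sets and for 3.67% of all with lower KO values. Acta2 differed by -0.14 with its highest-level probe set. Skeletal muscle markers, which could enter with tissue around a nerve, averaged 10.13 to 11.22 on KO nerve arrays, against 8.62 to 13.96 on WT nerve arrays, while Acta2 stayed between 13.87 and 14.43 on all 6.

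Other vessel genes in nerve gave 0 calls. Of 35 other endothelial genes 17 had a negative difference and of 18 other mural genes 11 did. Of 19 ligands and co-receptors 15 had a positive one, with a median of 0.07, and after centring 12 had.

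The effect of the genotype in motoneurons was set against that in nerve as an interaction over all 12 arrays. No member passed, nor did any probe set of the array (0%, with 3398 at an unadjusted p under 0.05). The members had differences of effect from -1.06 to 0.40 and a smallest adjusted p of 0.629 by limma. Of the 10 genes 9 were more negative in motoneurons than in nerve, against 47.2% of all probe sets, with a median of -0.35 against 0.02. An unadjusted p under 0.05 was seen for 1 of the 20, Rgs5 (1420940_x_at) at -0.93, against 3.81% of all with a negative value. A different genotype effect in the tissues was therefore not shown for any member.

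The genes whose profile over the 12 arrays was nearest to the mean profile of the 10 members were found by the root mean square difference of mean-centred log2 values, over 18193 genes. The 5 nearest outside the members were Wfdc1 (0.146), the endothelial adhesion molecule Icam2 (0.161), Samd9l (0.1725), the sulfotransferase gene Chst14 (0.176) and the nuclear long RNA Neat1 (0.179). The members themselves lay between 0.144 for Cdh5 and 1.36 for Acta2. The measure is set almost wholly by the difference between tissues: Wfdc1 differed by -5.08 in KO and -4.94 in WT between motoneurons and nerve, and by -0.05 between KO and WT motoneurons.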

How the data were processed

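Gene expression was measured on 12 arrays, 3 for each of 2 tissues and 2 genotypes. The authors deposited 1 log2 value for each probe set and array, made with Affymetrix Expression Console 1.1 per the submitters' processing notes. That the scale is log2 follows from the range of the values; how probes were summarized is not given in the sources used here. Of 45101 probe sets, 64 controls were left out, and platform annotation gave 34945 of the 45037 others exactly 1 symbol, 932 several and 9160 none; 34741 matched the RefSeq table of GRCm38.p6. For lists and medians, 1 probe set stood for a gene, that of highest mean over 12 arrays. Each comparison was fitted over its own arrays, and the interaction over all 12, in R 4.3.3 with limma 3.58.1 (linear models with moderated variances that follow the mean level, two-sided, Benjamini-Hochberg over all probe sets, threshold 0.05), and the fit was tested on simulated data. Members, lists and tests were chosen with earlier results of these data known. The text names every member probe set. Of each other vessel list it names the 4 genes with the smallest unadjusted p between KO and WT motoneurons. It also names Xist, Eif2s3y and the 5 genes most like the members, except where it says otherwise. Replicate numbers were checked for pairing by the correlation of deviations from group means. Same-numbered KO and WT arrays gave 0.09, -0.06 and -0.08 in motoneurons and 0.03, 0.31 and 0.22 in nerve. Differently numbered ones gave -0.12 to 0.15 in motoneurons and -0.30 to 0.09 in nerve. The nerve values of 0.31 and 0.22 lie above that range, so the check does not exclude pairing there. The main fits did not take the numbers to pair samples, and a replicate block was an alternative. Precision is limited by the number of arrays. Nothing states that the replicates of every group are separate mice, and p-values measure the spread between these samples, which may be technical. Alternatives covered scaling, filtering, array weights, Xist, a replicate block, probe set means, all arrays in 1 fit and each array left out. Python 3.11.15 and matplotlib 3.10.9 drew the figures.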

Additional observations from a re-analysis of the deposited data

How the results depend on the processing

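Leaving out 1 array at a time, or any other setting, kept all 10 genes lower in motoneurons than in nerve and past the threshold in both genotypes wherever they were tested; the brighter probe sets alone held fewer members. Over all probe sets these comparisons gave 37262 calls in KO and 36992 in WT, with 35789 to 36715 in KO and 35252 to 36737 in WT without 1 array, and 19115 in KO and 18336 in WT among brighter probe sets, where fewer are tested. Between KO and WT motoneurons the count of 0 over all probe sets became 61 among brighter probe sets, 2929 with array weights, 828 with all 12 arrays in 1 fit and 0 to 4646 without 1 array, with 4646 without WT replicate 3; Rgs5 (1420940_x_at) passed with array weights (-1.40, adjusted p = 0.0232 by limma) and with all 12 arrays (-1.32, adjusted p = 0.0285). In nerve 1 probe set, no member, passed with all 12 arrays and 0 without any 1 array, and the interaction gave 0 to 238 without 1 array. With a replicate block, 0 probe sets passed in each genotype comparison and the interaction, and 36960 in KO and 36402 in WT between tissues; the block changed no call of a member gene or member probe set. No value whose sign turned had passed. In motoneurons array weights gave -0.033 for Tie1, 0.13 for Rgs5 (1420942_s_at), 0.032 for Flt1 (1451756_at) and -0.053 for Flt1 (1454037_a_at), and the Xist covariate gave 0.022 for Tek, 0.30 for Rgs5 (1420941_at) and -0.55 for Flt1 (1454037_a_at). In nerve Kdr was -0.00070 with quantile normalization, -0.039 with centring and -0.0093 with array weights; centring gave -0.0032 for Cldn5 and -0.0049 for Cdh5, array weights gave 0.055 for Pdgfrb (1436970_a_at), and the mean of its probe sets gave -0.044 for Cdh5. Without both nerve arrays of high Xist, Acta2 was at 0.062, Tek at 0.15, Pdgfrb (1436970_a_at) at 0.034 and Flt1 (1451756_at) at -0.047. In the interaction array weights gave 0.023 for Rgs5 (1420941_at) and 0.080 for Acta2 (1444105_at). Without 1 array, values that turned sign ranged in motoneurons over -0.028 to 0.43 for Acta2 (1444105_at), -0.13 to 0.27 for Cdh5 (1422047_at), -0.36 to 0.10 for Flt1 (1451756_at), -0.35 to 0.30 for Flt1 (1454037_a_at), -0.92 to 0.032 for Rgs5 (1420941_at), -0.46 to 0.40 for Rgs5 (1420942_s_at) and -0.44 to 0.39 for Tie1 (1416238_at). In nerve they ranged over -0.043 to 0.12 for Cdh5 (1433956_at), -0.26 to 0.071 for Flt1 (1440926_at), -0.042 to 0.28 for Flt1 (1451756_at), -0.073 to 0.043 for Kdr (1449379_at), -0.0019 to 0.11 for Pdgfrb (1417148_at), -0.12 to 0.071 for Pdgfrb (1436970_a_at), -0.057 to 0.23 for Pecam1 (1421287_a_at), -0.29 to 0.034 for Tek (1418788_at) and -0.055 to 0.32 for Tie1 (1416238_at). In the interaction they ranged over -0.35 to 0.16 for Acta2 (1444105_at), -0.0041 to 0.39 for Cdh5 (1422047_at), -0.62 to 0.041 for Flt1 (1454037_a_at), -0.66 to 0.29 for Rgs5 (1420941_at), -0.21 to 0.65 for Rgs5 (1420942_s_at), -0.13 to 0.19 for Tek (1418788_at) and -0.58 to 0.25 for Tie1 (1416238_at). The cause of these turns was not tested.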
